A study of Mus musculus with 8 samples.

Results

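Antibody light chains are encoded at 2 loci that B-lineage cells cut and rejoin. At the kappa locus a V segment is joined to a J segment upstream of the single constant region. The join either deletes the DNA in between or inverts it, because kappa V segments lie in both orientations, and only the deletion changes copy number. The lambda locus of the mouse is much smaller and is joined in the same manner. T-lineage cells use the same recombinase on the T cell receptor (TCR) loci and normally leave the light chain loci in germline form. The comparisons here ask whether both loci kept their full DNA content in T-lineage tumours, and how small a loss the arrays could have shown.

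The light chain regions were followed on all 8 arrays through 438 of 235402 probes, chosen by position alone on mouse build mm9 and read in 44 of 23390 windows of neighbouring probes. The kappa locus was taken as chr6:67500000-70700000, with 228 probes, and the sequence within 500 kb on either side, with 113 probes, served as its flank. The lambda locus was taken as chr16:19000000-19300000, with 24 probes, and its flank within 500 kb on either side held 73 probes, of which the 17 on the low side lay only in the outer part of that flank. In the RefSeq gene table for GRCm38.p6, used for names and order only, the kappa locus holds 102 V segments, 60 V pseudogenes, 5 J segments and 1 constant region, and runs from the side of Serbp1 to the side of Rpia and Eif2ak3. The same table gives the lambda locus 3 V segments, 3 J segments, 2 J pseudogenes, 3 constant regions and 1 constant region pseudogene, between Hira and a run of olfactory receptor genes starting with Olfr164. The median distance between probes was 11.9 kb in the kappa locus and 11.4 kb in the lambda locus, against 7.82 kb over the autosomes. The widest stretch without a probe was 80.8 kb in the kappa locus and 30.5 kb in the lambda locus. Single V segments were not placed against the probes.

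The mice were Balb/c, carried the SEC31A-JAK2 fusion and came from bone marrow transplants, and each sample (Cy5) was hybridised against DNA from a normal Balb/c mouse of wild-type genotype (Cy3). Primary T-lymphoblastic lymphoma (T-LBL) came from the spleens of mice M7 and M9 and from a neck lymph node of M12. The secondary T-LBL were transplants derived from mouse 12, taken from the pancreas in M12.49, M12.52 and M12.53 and from a neck lymph node in M12.50. The only other sample was the bone marrow of M10, a primary transplant with myeloid hyperplasia. Every tumour was measured on 1 array, so the error of a single array below is a standard error (SE) over its probes. The 5 arrays of the mouse 12 lineage share an origin, so p-values over 7 lymphomas count related tumours as separate and are too small. The labels give neither the share of tumour cells in a sample nor the tissue of the reference DNA.

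All values are log2 ratios of sample over reference, centred on the autosomal median of the array, so 0 is the reference level and loss of 1 of 2 copies in every cell would give −1. A given value can come from fewer cells with a loss or from a smaller loss per cell, and these cannot be told apart. The spread between neighbouring probes was 0.474 on M7 and 0.434 on M12.52, while the other 6 ranged from 0.224 to 0.283. In M7 only, the reference channel was dim: 52.1% of kappa locus probes were well above background in it, against 98.7% or more on every other array. Over the autosomal probes the ratios of M12.53 correlated with those of the 6 arrays other than M7 at r = −0.51 to −0.21, and in 5 of these pairs r was under −0.3. The 15 pairs among those 6 arrays had r = 0.27 to 0.79, and M7 had r = −0.25 to −0.11 with them. By this measure alone the direction of M12.53 is not settled, although its labelled dyes are those of the other arrays. Its means in the lost TCR beta and alpha/delta segments, below, were −0.99 and −2.59, with the same sign as theirs. With its sign turned, both would read as gains, unlike on every other array of the mouse 12 lineage. The labelled direction was kept, and tests on all lymphomas are also given with the sign of M12.53 turned.

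The TCR loci show what a loss looked like on these arrays. These segments were chosen from calls on the same arrays, so their values are a description. The TCR beta segment is the span called on the 5 arrays of the mouse 12 lineage, and it was not called on M7 or M9. The means of M7 and M9 are therefore taken between ends that come from that lineage. In the lost segment of the TCR beta locus, chr6:41018389-41489670 with 60 probes, the mean was −0.46 on M7, −0.30 on M9 and −0.63 on M12. In the secondary pancreas tumours M12.49, M12.52 and M12.53 it was −0.92, −1.07 and −0.99, and in the lymph node tumour M12.50 it was −0.92. It was 0.06 on the myeloid sample M10. All 7 lymphomas were below the reference, with no overlap with M10, and the secondary tumours lay lower than the 3 primary ones. For the arrays of the mouse 12 lineage this order was set in part by the choice of the segment. The lost segment of the TCR alpha/delta locus, chr14:54337752-54763495 with 59 probes, was at −0.74 on M7, −0.51 on M9, −2.45 on M12 and −3.26 to −2.59 on the secondary tumours, against −0.07 on M10.

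On average over its probes, the kappa locus stayed near the reference level on every array. Its mean over all probes was 0.04 ± 0.04 (SE) on M7, −0.08 ± 0.02 on M9, −0.05 ± 0.02 on M12, 0.09 ± 0.02 on M12.53, −0.08 ± 0.03 on M12.52, 0.06 ± 0.02 on M12.50 and −0.05 ± 0.02 on M12.49. On the myeloid sample M10 it was 0.00 ± 0.02. The lymphomas lay on both sides of M10 and of 0, with 4 of 7 below 0 (5 of 7 with the sign of M12.53 turned). On each of the 7 lymphomas the kappa value lay above the TCR beta value. For the mouse 12 lineage that order was set in part by choosing the TCR beta segment from calls of loss. The kappa locus and the lost TCR beta segment lie on the same chromosome, and in the 5 arrays of the mouse 12 lineage the segment that covers the kappa locus began at chr6:41495139, just past the TCR beta loss, and ran to the last probes of the chromosome with a mean of −0.03 to 0.00.

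**Figure D1:**
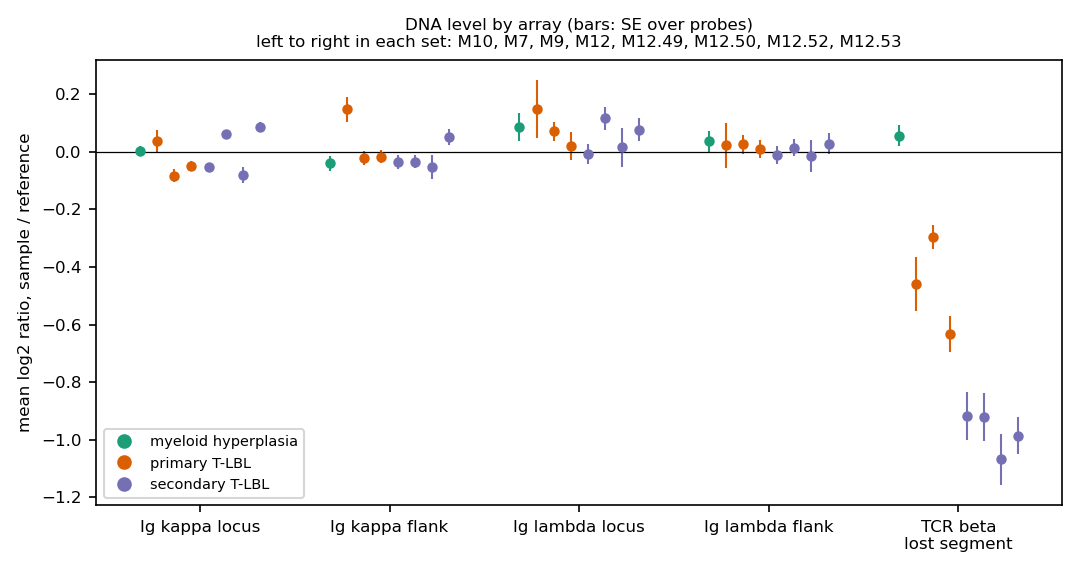
Mean log2 ratio (sample over reference, vertical axis) of the kappa and lambda loci, their flanks and the lost TCR beta segment on each array; points are arrays, bars are SE over probes, colours are groups. The light chain loci and flanks sit between −0.08 and 0.15 on all 8 arrays, while the TCR beta segment lies between −1.07 and −0.30 on the lymphomas.

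Set against its own flank, which is meant to reduce slow shifts along the chromosome, the kappa locus differed by −0.11 ± 0.06 (SE over windows of 10 probes) on M7, −0.06 ± 0.03 on M9, −0.03 ± 0.03 on M12, 0.04 ± 0.04 on M12.53, −0.03 ± 0.05 on M12.52, 0.10 ± 0.03 on M12.50, −0.02 ± 0.03 on M12.49 and 0.04 ± 0.03 on M10. The flank had offsets of its own, with means of 0.15 on M7 and −0.04 on M12.50, where the locus was at 0.04 and 0.06. None of the 8 differences reached 3 SE. Over the 7 lymphomas the mean difference was −0.016 ± 0.067 (SD, n = 7), lower than the flank in 5 of 7. The exact two-sided sign-flip permutation test gave p = 0.531, and p = 0.531 after Benjamini-Hochberg adjustment over the 2 loci. The 95% interval of this mean ran from −0.07 to 0.04, and is too narrow because it counts the 5 related arrays as separate. With the mouse 12 lineage as 1 value the mean of the 3 values was −0.053, and the exact test cannot go below p = 0.25. With the sign of M12.53 turned the mean was −0.026, and 6 of 7 lymphomas lay below the flank.

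The secondary tumours had a kappa difference of 0.02 ± 0.06 (SD, n = 4), against −0.07 ± 0.04 (SD, n = 3) in the primary tumours. The highest primary value (M12, −0.030) and the lowest secondary value (M12.52, −0.029) nearly met. The groups differed by 0.088, with p = 0.0571 in the exact two-sided permutation test, which is the smallest p that 4 against 3 arrays allow, and an adjusted p of 0.114. More of this difference lay in the flank than in the locus: the flank mean was 0.04 in the primary and −0.02 in the secondary tumours, and the locus mean −0.03 and 0.00. The primary flank mean was raised by the noisy array M7, at 0.15, while M9 and M12 were both at −0.02. Against the autosomal median the locus differed between the groups by 0.034 (exact permutation p = 0.514, adjusted p = 0.571), with the probes' median by 0.034 (adjusted p = 0.800) and with normexp by 0.046 (adjusted p = 0.343). The difference from the flank was 0.037 among the arrays of the third scan group (M12.49 and M12.52 against M9), 0.158 on the slide shared by M12.50 and M9, and 0.069 among arrays on the first use of a slide (M12.49, M12.50 and M12.53 against M12). These subsets hold 1 primary array each and have no test. Scan groups are days of scanning and slides are shared barcodes, both from the array headers. The use of a slide is inferred from the order of scan times, and the labels do not state it.

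Along the locus, the V region was divided by position, and the J segments and constant region lie at its last end. In the first of 4 parts of equal length, the lymphomas ranged from −0.08 to 0.17 with an SE of at most 0.07 on any array, and M10 was at 0.01. In the next part they ranged from −0.12 to 0.10, with M10 at 0.00. In the third part they ranged from −0.14 to 0.12, with M10 at 0.03. The last part, which holds the J segments and the constant region, ranged from −0.08 to 0.12, with M10 at −0.02. In both middle parts 5 of 7 lymphomas lay below 0, namely the 3 primary tumours, M12.49 and M12.52, with M12.52 the lowest in the third part and M9 in the one before it.

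**Figure D2:**
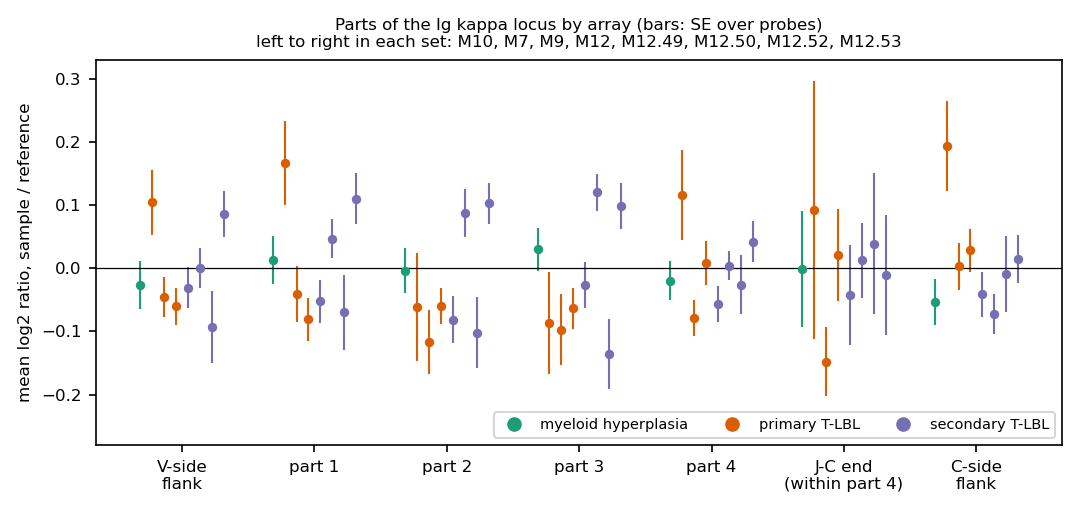
Mean log2 ratio (vertical axis) of 4 equal parts of the kappa locus from the V side to the constant region, of the J-C end within the last part, and of the flanks, by array; bars are SE over probes. No equal part sits below −0.14 on any array, and the J-C end ranges from −0.15 on M9 to 0.09 on M7.

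The J-C end, here the last 100 kb of the locus, is where every deleting V to J join has its breakpoint. Its 11 probes had a mean of 0.09 on M7, −0.15 on M9, 0.02 on M12, −0.01 on M12.53, 0.04 on M12.52, 0.01 on M12.50, −0.04 on M12.49 and 0.00 on M10. The lymphomas lay on both sides of the myeloid sample, with 3 of 7 below 0. The SE over the 11 probes was 0.06 to 0.20, so this end was measured less closely than the locus as a whole.

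At a finer scale the kappa locus was read in 23 windows of 10 probes. On M7, 4 of 23 windows were at or below −0.25, where 5.02% of autosomal windows of that array were. On M9, 2 windows were, against 2.87% of autosomal windows, and on M12.52, 1 window was, against 7.59%. The share was thus above the autosomal one on M7 and M9 and below it on M12.52, and this was not tested. No kappa window reached that level on M10 (1.95% of its autosomal windows), M12 (0.901%), M12.49 (0.919%), M12.50 (1.93%) or M12.53 (0.751%). On M7, 4 kappa windows and 1 lambda window were also at or above 0.25, as were 14.4% of its autosomal windows. No window of the kappa or lambda locus lay beyond 3 SD of the autosomal windows of its array in either direction, where 0.673% of the autosomal windows of the 8 arrays did. Single kappa probes at or below −1 made up 3.65% on M7, against 1.80% of its autosomal probes and 0.90% of its kappa flank. On M9 they made up 1.75%, against 0.876% and 0%, and on M12.52 1.32%, against 2.20% and 1.77%. The other arrays had no such kappa probe.

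**Figure D3:**
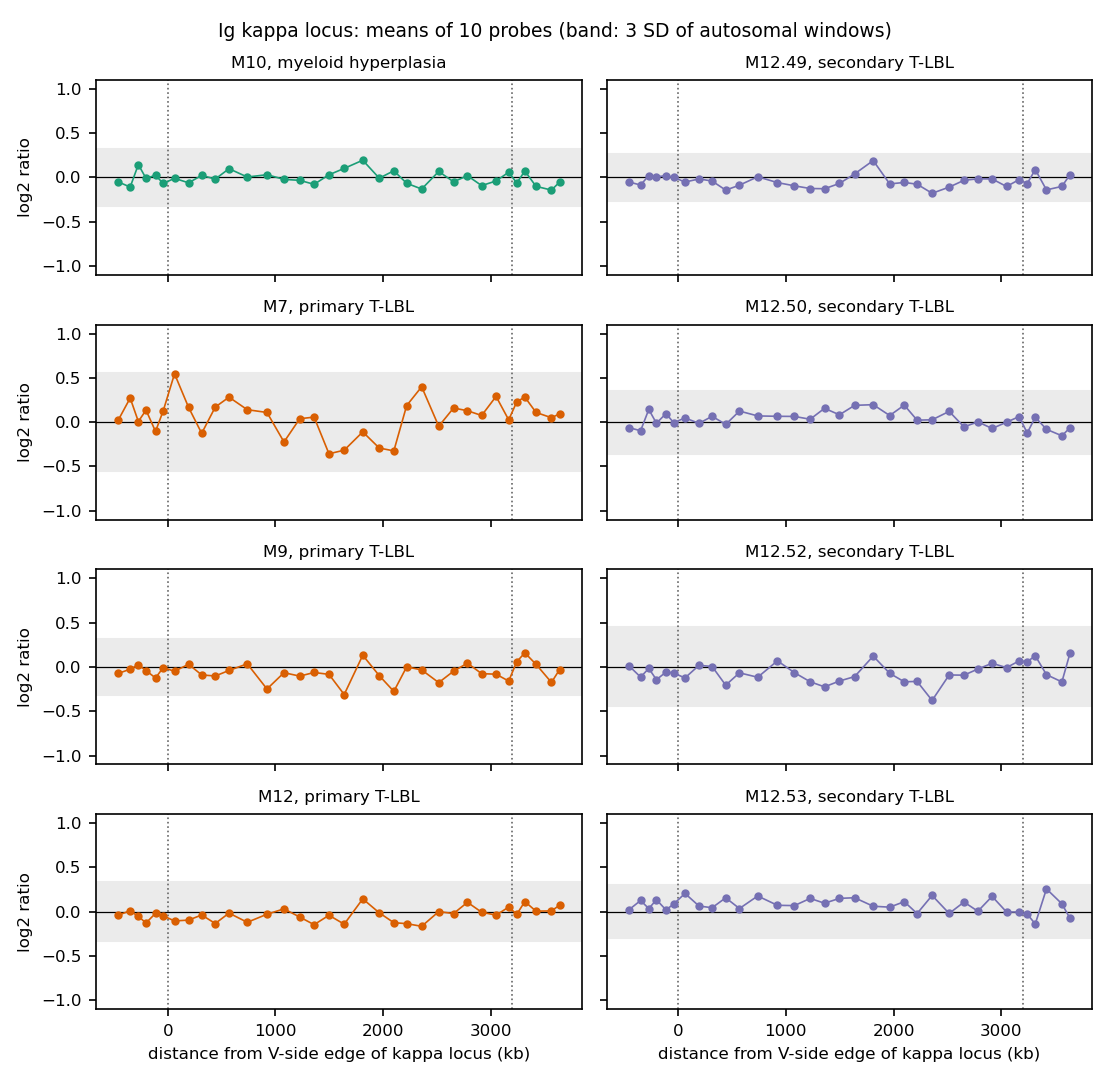
Window means of 10 probes (log2 ratio, vertical axis) along the kappa locus and its flanks, by distance in kb from the V-side edge, 1 panel per array; dotted lines mark the locus edges and the grey band spans 3 SD of autosomal windows of that array. Each window stays inside the band of its array, and M7 has the widest band.

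The tests of each window gave no call. With limma and Benjamini-Hochberg adjustment over 22135 autosomal windows, 0 of the 25 windows of both loci passed an adjusted p of 0.05 in the secondary T-LBL, where 0.145% of all autosomal windows did. The count was also 0 of 25 in the primary T-LBL (0.00452% of autosomal windows), in all T-LBL together (0.117%) and between secondary and primary T-LBL (0%). At an unadjusted p under 0.05, 1 of 25 windows passed in the secondary tumours (4.92% of autosomal windows), 2 in the primary (3.61%), 2 in all T-LBL (7.1%) and 2 between the groups (1.5%). With the sign of M12.53 turned these counts were 0 of 25 after adjustment in all 4 comparisons. Weights for each array gave 23 of 25 windows in the secondary tumours, 21 of them lower, but then also called 19004 of the autosomal windows, and the weights did not converge. They gave 3 of 25 in all T-LBL with 3678 autosomal windows called, and signals corrected by normexp gave 1, with 730.

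The locus windows with an unadjusted p under 0.05 in any comparison were 3, in the third part of the kappa locus or across its edge with the part before it. The window chr6:69067713-69209920 was at −0.32 on M7, −0.31 on M9 and −0.14 on M12, and at 0.16, −0.11, 0.19 and 0.04 on M12.53, M12.52, M12.50 and M12.49. The primary tumours were the lower group, with limma's mean at −0.26 and an unadjusted p of 0.0023, and an adjusted p of 0.966. The window chr6:69532387-69666746 was at −0.32, −0.28 and −0.12 on the same primary arrays and from −0.17 to 0.19 on the secondary ones, with an adjusted p of 0.966 for the primary tumours. Between them, chr6:69224290-69397879 ran the other way: 6 of 7 lymphomas were above 0, from −0.11 on M7 to 0.20 on M12.50, and the myeloid sample was at 0.19. M12 carried less of the low values than both spleen tumours, and its 4 secondary tumours were on both sides of 0 in both low windows.

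Window profiles of the kappa locus were alike on some arrays and not on others. Over the 23 windows, r between 2 arrays ran from −0.51 to 0.73 across 28 pairs, with a median of 0.00, or 0.17 with the sign of M12.53 turned. Among the 15 pairs without M7 and M12.53 it ran from −0.29 to 0.73 with a median of 0.31, and 12 of the 15 were above 0. The pairs of M12.53 ran from −0.49 to 0.09. Neighbouring windows and a common reference DNA are shared between arrays, so these are a description. Of the 228 kappa probes, 1, at chr6:67939418-67939477, was at or below −0.5 in at least 5 lymphomas, a share of 0.439%, where 0.359% of autosomal probes were. It was at −0.74 on the myeloid sample too, and at 0.95 on M12.53.

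The lambda locus also showed no loss. Its mean was 0.15 ± 0.10 (SE) on M7, 0.07 ± 0.03 on M9, 0.02 ± 0.05 on M12, 0.08 ± 0.04 on M12.53, 0.02 ± 0.07 on M12.52, 0.12 ± 0.04 on M12.50 and −0.01 ± 0.03 on M12.49, with M10 at 0.09 ± 0.05. The myeloid sample lay within the range of the lymphomas, 6 of which were above 0 (5 with the sign of M12.53 turned). The 2 full windows were at most at 0.41, on M7, and at least at −0.08, on M12.49.

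Against its own flank, the lambda locus was higher by 0.13 ± 0.13 (SE over probes) on M7, 0.04 ± 0.05 on M9, 0.01 ± 0.06 on M12, 0.05 ± 0.05 on M12.53, 0.03 ± 0.09 on M12.52, 0.10 ± 0.05 on M12.50 and 0.00 ± 0.05 on M12.49, and by 0.05 ± 0.06 on the myeloid M10. The 7 lymphomas had a mean of 0.052 ± 0.046 (SD, n = 7), with a 95% interval of 0.01 to 0.10, also too narrow for related arrays, and 0 of 7 lay below the flank. The exact two-sided sign-flip permutation test gave p = 0.0156, the smallest p that 7 arrays allow, and an adjusted p of 0.0313. On no single array did the difference reach 3 SE. In every set of 6 arrays the sign-flip test gave its smallest p, 0.0313, with an adjusted p of 0.0625. The call thus ended in each of these sets, and the mean without M7 was 0.040. It also ended with the probes' median, at 0.022 (adjusted p = 0.891), with the mouse 12 lineage as 1 value, and with the sign of M12.53 turned, at 0.038 (adjusted p = 0.313), where 1 of 7 lay below the flank and the interval ran from −0.02 to 0.10. The adjusted p of the other alternatives that ended the call ran from 0.0625 to 0.5. Secondary and primary tumours differed by −0.014 (0.05 ± 0.04, n = 4, against 0.06 ± 0.06, n = 3), with p = 0.629 in the exact permutation test.

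**Figure D4:**
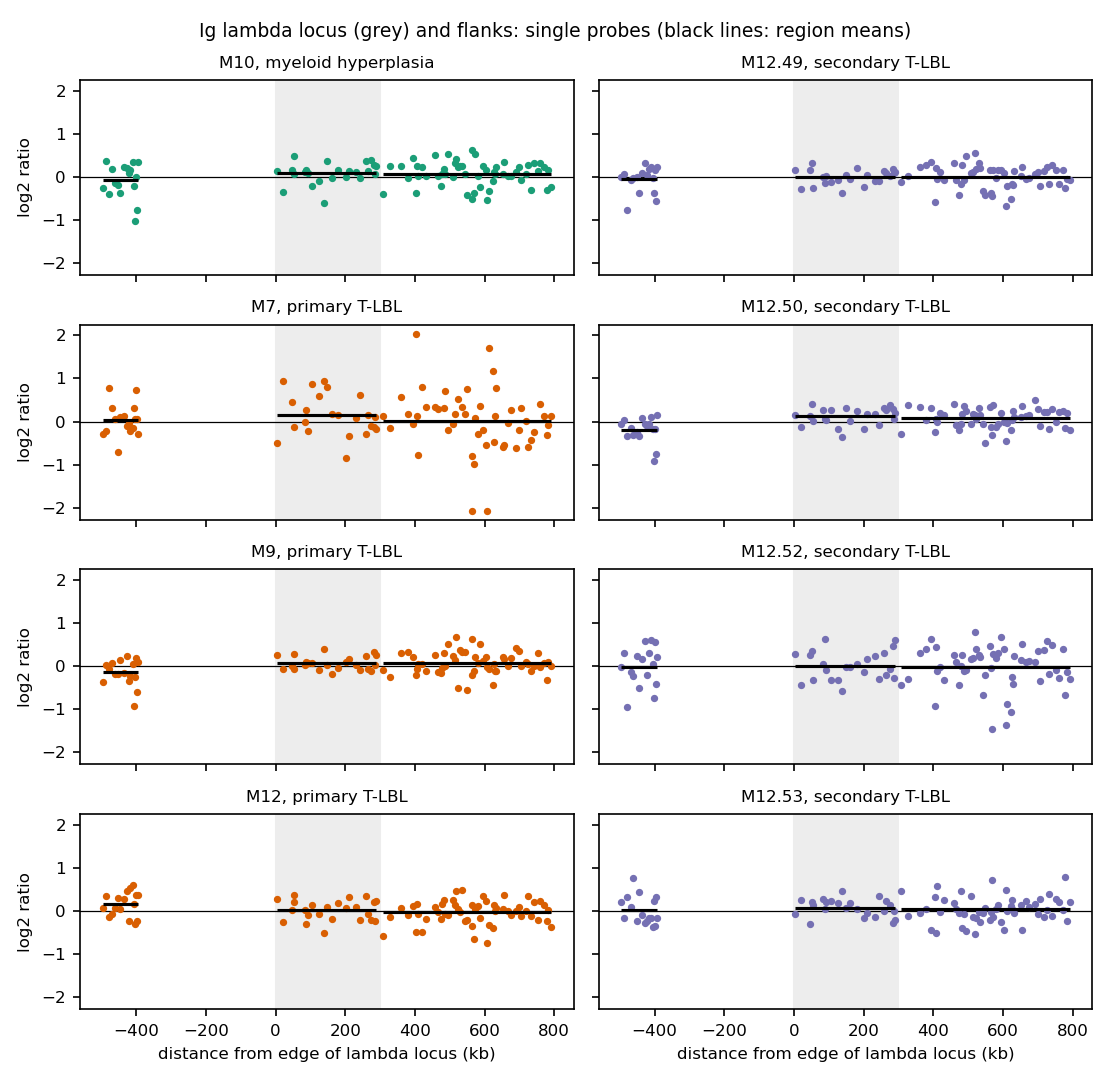
Log2 ratio (vertical axis) of every probe of the lambda locus (grey) and its flanks, by distance in kb from the edge of the locus, 1 panel per array; black lines are the means of the locus and of each flank. The locus mean lies between −0.01 on M12.49 and 0.15 on M7, and single probes of M7 and M12.52 scatter most.

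Segmentation of each chromosome placed no breakpoint inside either locus or its flanks, on any of the 8 arrays. Calls needed 5 probes and a mean at least 0.25 away from 0, and 0 calls overlapped the loci or the flanks. Lowering the penalty from 6 to 3 or the threshold to 0.15 also gave 0 calls. With the penalty of 6, the segment over the kappa locus on M7 and M9 also ran across the TCR beta segment, which was not called there. On these arrays the lack of a breakpoint at this penalty therefore says little about a loss of that depth and length. With the penalty of 3, the segment over the kappa locus began at chr6:41542154 on M7 and at chr6:41495139 on M9. Both starts lie past the TCR beta segment, and no breakpoint fell inside the kappa locus or its flanks.

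How small a loss would have been seen depends on its length. For each array the limit was set at 3 SD of autosomal windows holding as many probes as the stretch, where the SD also includes slow shifts along chromosomes. For the whole kappa locus the limit was −0.20 on M7, −0.18 on M9, −0.14 on M10, −0.20 on M12, −0.13 on M12.53, −0.12 on M12.52, −0.23 on M12.50 and −0.07 on M12.49. If 1 of 2 copies were lost over the whole locus in some of the cells, these limits correspond to 9.69 to 29.9% of the cells. A join that deletes only part of the locus would need more cells, as given below. No array had a kappa mean below its own limit, and the nearest approach was on M12.49, at −0.05 against −0.07.

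Against the flank, the limit of 3 SE for the kappa locus was −0.19 on M7 and −0.09 to −0.14 on the other arrays, or 12.3 to 24.4% of cells. For the lambda locus the limit from autosomal windows was −0.18 on M12.49 to −0.38 on M7, or 24.1 to 46.7% of cells. Its limit of 3 SE against the flank was −0.14 to −0.38, or 18.2 to 46.4% of cells. The limit for the lambda locus was thus wider than for the kappa locus on each array, with 24 probes against 228.

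Shorter losses needed more cells. For a stretch of 56 probes, about 1 of the 4 equal parts of the kappa locus, the limit was −0.13 on M12.49 to −0.29 on M7. That is 17.4 to 36.2% of cells. For a window of 10 probes it was −0.26 on M12.49 to −0.55 on M7, or 33.5 to 63.4% of cells. For the J-C end alone, the limit was −0.53 on M7, −0.31 on M9, −0.33 on M12, −0.28 on M12.53, −0.43 on M12.52, −0.35 on M12.50, −0.26 on M12.49 and −0.31 on M10, or 32.5 to 61.0% of cells. For any 5 neighbouring probes it was −0.36 to −0.74, or 44.2 to 79.9% of cells. On M12 and the 4 secondary tumours the TCR beta loss was deeper than the limit of the J-C end. A loss of that depth over the whole J-C end would therefore have passed it. A join with its breakpoint inside this end removes only part of it and would lower its mean less. The means of M7 and M9 over the TCR beta segment were −0.46 and −0.30, above their J-C limits of −0.53 and −0.31. A loss of that depth would not have passed, and the depth of a loss between their own ends was not measured. Over the whole kappa locus, a loss as deep as the array's mean over the TCR beta segment would have passed the limit on all 7 lymphomas. An inversion changes no copy number and would not be seen at any depth.

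**Figure D5:**
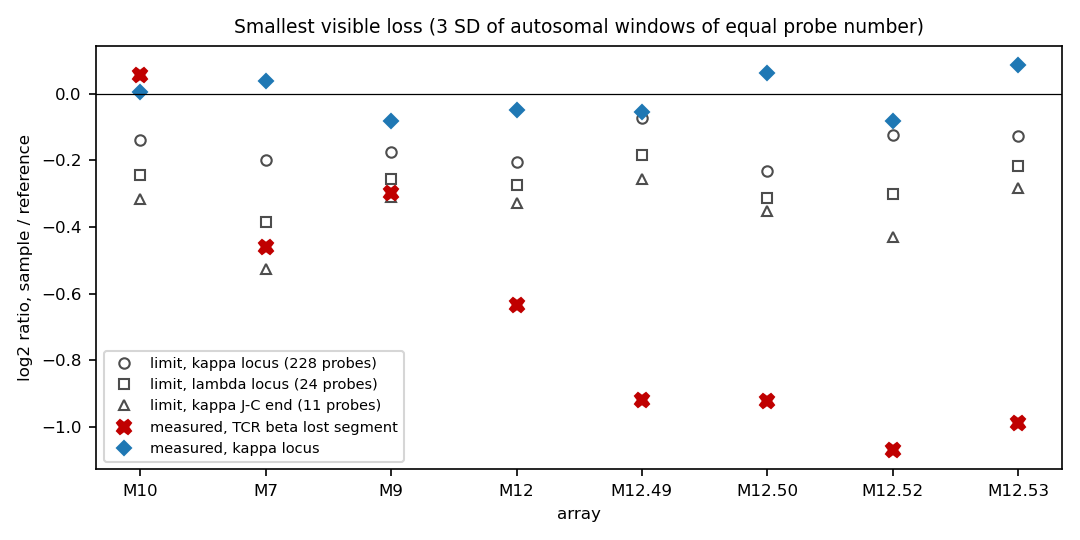
Smallest visible loss by array (log2 ratio, vertical axis; open symbols, 3 SD of autosomal windows with the same number of probes) for the kappa locus, the lambda locus and the kappa J-C end, with the measured kappa locus (diamonds) and lost TCR beta segment (crosses). Each measured kappa value lies above its limit, and the TCR beta crosses of M7 and M9 lie above the limit of the J-C end.

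The immunoglobulin heavy chain locus, which early T-lineage cells can also cut at its D and J segments, gave values over a wider range on the same arrays. Its lost segment, chosen from calls on 2 of these arrays, is short (chr12:114670169-114713534, 5 probes). It was at 0.30 on M7, −1.09 on M9, −0.15 on M12, −0.37 on M12.53, −1.72 on M12.52, −1.99 on M12.50, −2.35 on M12.49 and −0.33 on the myeloid M10. On M9, M10 and the 4 secondary tumours it was lower than any window of the light chain loci on the same array. Those windows hold 10 probes and were not chosen for being low. M12.53 lay close to the myeloid sample, and neither of them passed its limit for 5 neighbouring probes (−0.39 on M12.53 and −0.43 on M10). This is a description with no test.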

How the data were processed

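Genomic DNA of 8 samples was hybridised to 2-colour Agilent arrays. Per the file headers, the authors' Feature Extraction software (version 10.5.1.1; the submitters' processing notes name 9.1.1) gave background-subtracted, dye-normalised signal intensities, and the deposited log10 ratios equal the deposited value table. Positions are mm9, taken for M12, whose header names mm8, through probe names.

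The log2 ratio of processed Cy5 over Cy3 intensity was computed without control or outlier-flagged spots, averaged per probe and centred on the autosomal median, with no loess. Windows hold 10 neighbouring probes, and limma 3.58.1 (R 4.3.3) fitted all 8 arrays with a mean per group. The lambda SE comes from probes because the locus holds 2 full windows. Segmentation used penalised least squares (numba 0.67.0), charging each breakpoint 6 noise variances multiplied by the log of the number of probes, with at least 3 probes a segment and neighbours closer than 0.15 merged. Scripts were tested on simulated data. The share of cells is 2 × (1 − 2 to the power of the log2 ratio), for loss of 1 of 2 copies. Array precision is limited by probe number.

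Members, regions and lists were chosen with earlier results of these data known. Windows were named where the unadjusted limma p was under 0.05, or where a segment was described. Alternatives covered background correction (normexp, offset 50, on median signals), the deposited table, probe filters, window size, array weights, the scan as a block and leaving out arrays. Leaving out arrays on the second use of a slide, the tumour's origin as a random block and turning the sign of M12.53 were chosen after seeing the data.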

Additional observations from a re-analysis of the deposited data

How the results depend on the processing

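Of 133 values of the tests and counts under alternatives, 107 kept their direction and side of the threshold. The kappa mean over all lymphomas, near 0 throughout, turned positive with the probes' median (0.0035), without M7 and M12.52 (0.0049) and without arrays on the second use of a slide (0.021). It was −0.053 with the mouse 12 lineage as 1 value and ran from −0.035 to −0.00072 when 1 array was left out. The lambda mean over all lymphomas stayed positive but lost its call at 0.063 (autosomal median in place of the flank), 0.022 (probes' median), 0.086 (normexp), 0.042 (without M7 and M12.52), 0.041 (without second uses of slides), 0.070 (mouse 12 lineage as 1 value), 0.038 (M12.53 turned) and 0.040 to 0.060 (1 array left out). With fewer arrays the smallest p rises, and the lambda p was at that smallest value in each of these sets. Those losses follow from the number of arrays together with the adjustment over both loci. For the others the cause was not tested. The lambda difference between secondary and primary tumours turned positive at 0.012 (probes' median), 0.020 (probes well above background), 0.014 (deposited table), 0.024 (without M7 and M12.52) and 0.042 (without second uses), and ran from −0.040 to 0.019 with 1 array left out. The kappa difference between these groups kept its sign but fell from 0.088 to 0.034 (autosomal median in place of the flank), 0.034 (probes' median) and 0.046 (normexp), and ran from 0.063 to 0.107 with 1 array left out. Windows called moved from 0 only with array weights (23 and 3) and normexp (1). The scan block could be fitted only between secondary and primary tumours. No paired analysis was possible because the labels derive every secondary tumour from mouse 12, whose primary tumour is on 1 array. Noise of M7 and M12.52, 24 lambda probes and 11 at the J-C end limit what could be seen.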
